A study of Homo sapiens with 14 samples.

Results

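Replication-dependent histone genes were taken as the protein-coding genes of RefSeq (GRCh38.p14, the build the submitters' notes call hg38) whose symbol starts with H2AC, H2BC, H3C or H4C or is H1-1 to H1-6. There are 70 of them among 20052 protein-coding genes: 6 H1, 17 H2A, 19 H2B, 13 H3 and 15 H4 genes. The measurement is H3K4me2 ChIP-seq, read counts over a common set of 54942 regions, of which 25 lay within 1 kb of one of these genes. Those 25 regions touched 42 of the 70 genes, and the other 28 had no region within 1 kb in the table, so they have no value. No histone gene region had 0 counts in all libraries, against 843 regions in the whole table.

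The cell line MDA-MB-231, derived from a triple-negative breast cancer, was used throughout. The cultures were given OICR-9429, which occupies WDR5, a shared subunit of the complexes that methylate H3K4, or its solvent DMSO. Treatment lasted 24 to 96 hours, with no time per library, and the dose is not given in the sources used here. Each arm had 3 ChIP libraries that the labels number as biological replicates, with a Drosophila spike-in of 5% put in ahead of the antibody step. The 6 libraries held 16483098 to 23509413 counts. Markers of the line (VIM, CD44, EGFR, AXL and CAV1) all held a region, with 104 to 171 normalised CPM (counts scaled for library size). Markers of other cell types were not absent: all 5 luminal genes held one, from 10.4 at PGR to 82.9 at FOXA1, as did all 3 endothelial genes, from 18.3 to 68.5. A region shows H3K4me2 and not transcription, and the part of other cells was not tested.

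Replication-dependent histone genes supply the bulk of the nucleosome proteins while DNA is copied. They are short, lack introns in their classical form, sit together in clusters and give mRNAs that end in a stem-loop rather than a poly(A) tail. Their transcription rises in S phase under NPAT, the scaffold of the histone locus body, while HINFP acts at H4 promoters and POU2F1 (Oct-1) at H2B promoters. H2A, H2B, H3 and H4 form the nucleosome core, and H1 binds the linker DNA. H3K4me2, dimethylation of lysine 4 on H3, marks promoters and their flanks as well as distal elements.

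The sequence upstream of these genes differs by family, and 8 examples are shown because they carry the elements each family is known for. They are the 200 bases before the RefSeq start site (GRCh38.p14), 5′ to 3′ on the strand of the gene. Capitals mark matches, on either strand, to CCAAT (bound by NF-Y), TATAAA (the TATA box), ATTTGCAT (the octamer of H2B genes), GGTCCG (in the HINFP site of H4 genes) and AAACACA (the H1 box). On the antisense strand GGTCCG can share letters with CCAAT, as it does in H2BC21. H2BC21, H2BC4, H1-2, H3C2, H4C16 and H4C12 had a region, while H2BC1 and H1-6, both known from testis, had none.
H2BC21 (chr1:149886683-149886882, minus strand): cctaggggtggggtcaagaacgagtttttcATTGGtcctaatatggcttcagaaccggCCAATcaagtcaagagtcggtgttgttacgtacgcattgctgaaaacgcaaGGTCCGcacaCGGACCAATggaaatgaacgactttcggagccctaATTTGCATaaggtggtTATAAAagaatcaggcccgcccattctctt
H2BC4 (chr6:26123927-26124126, minus strand): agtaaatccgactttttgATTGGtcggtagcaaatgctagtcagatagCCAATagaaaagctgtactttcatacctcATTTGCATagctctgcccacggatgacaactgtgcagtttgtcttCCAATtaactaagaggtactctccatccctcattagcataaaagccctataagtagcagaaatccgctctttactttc
H1-2 (chr6:26056471-26056670, minus strand): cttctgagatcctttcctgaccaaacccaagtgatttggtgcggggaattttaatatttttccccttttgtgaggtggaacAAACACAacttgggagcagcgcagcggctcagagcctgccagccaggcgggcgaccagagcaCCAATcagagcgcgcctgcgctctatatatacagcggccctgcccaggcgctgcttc
H3C2 (chr6:26032100-26032299, minus strand): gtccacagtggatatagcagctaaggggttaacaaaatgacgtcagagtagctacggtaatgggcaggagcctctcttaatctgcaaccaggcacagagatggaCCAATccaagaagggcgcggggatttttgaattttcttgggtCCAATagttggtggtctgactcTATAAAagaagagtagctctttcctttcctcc
H4C16 (chr12:14771132-14771331, minus strand): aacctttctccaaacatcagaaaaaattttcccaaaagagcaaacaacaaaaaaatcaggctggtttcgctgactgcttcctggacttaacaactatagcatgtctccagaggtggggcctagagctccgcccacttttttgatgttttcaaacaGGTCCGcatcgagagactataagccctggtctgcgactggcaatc
H4C12 (chr6:27831561-27831760, minus strand): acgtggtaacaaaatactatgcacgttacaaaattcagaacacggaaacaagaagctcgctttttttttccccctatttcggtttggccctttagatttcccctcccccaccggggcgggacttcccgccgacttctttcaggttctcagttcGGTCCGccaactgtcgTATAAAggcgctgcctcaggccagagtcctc
H2BC1 (chr6:25726577-25726776, plus strand): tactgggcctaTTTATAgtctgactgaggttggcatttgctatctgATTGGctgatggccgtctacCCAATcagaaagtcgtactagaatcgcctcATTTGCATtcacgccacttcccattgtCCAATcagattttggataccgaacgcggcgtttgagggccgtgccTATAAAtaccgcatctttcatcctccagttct
H1-6 (chr6:26108136-26108335, minus strand): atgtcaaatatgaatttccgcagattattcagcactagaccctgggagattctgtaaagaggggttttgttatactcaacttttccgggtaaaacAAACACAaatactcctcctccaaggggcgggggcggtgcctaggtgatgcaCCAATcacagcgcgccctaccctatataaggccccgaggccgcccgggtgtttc

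Over the 64 members with a promoter in the RefSeq table (250 bases before to 50 after the start), the families separated by these letters. GGTCCG was found in 12 of 13 H4 promoters, always on the sense strand and 47 to 44 bases upstream of the start, against 14.5% of 15842 protein-coding promoters. AAACACA was found in 6 of 6 H1 promoters, against 4.24% of all. The octamer was found in 14 of 18 H2B and 11 of 16 H2A promoters, against 1.70% of all. Windows of H2A and H2B genes that face each other overlap, so these counts share letters. CCAAT was in every H1, H2A, H2B and H3 promoter of the table but in 3 of 13 H4 promoters, against 36.4% of all. TATAAA was in 42 of 64, against 9.63% of all. The table held no promoter for H4C1, H4C3, H2AC12, H3C11, H3C12 and H2BC12L.

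These letters were present with and without a region, where a promoter counts as with a region if one lay within 1 kb of its gene. The region need not cover the start, and 9 of the 38 promoters with a region had the start outside it. GGTCCG was in 7 of 7 H4 promoters with a region and 5 of 6 without. Among those 7, the starts of H4C15, H4C5 and H4C12 lay 10600, 967 and 176 bases from a region. The octamer was in 10 of 13 H2B promoters with a region and 4 of 5 without. AAACACA was in the 2 H1 promoters with a region and the 4 without. TATAAA was in 29 of 38 histone promoters with a region and 13 of 26 without.

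H3K4me2 covered the histone clusters in patches. Regions touched 2 of 6 H1, 12 of 17 H2A, 13 of 19 H2B, 6 of 13 H3 and 9 of 15 H4 genes. On chromosome 6 the first block (25726063 to 26285534) had a region at 17 of 34 genes, the middle block (27132316 to 27147562) at 4 of 5 and the last block (27807479 to 27893891) at 12 of 16. The main block of chromosome 1 (149782689 to 149887965) had a region at 8 of 11. H4C16, a lone H4 gene on chromosome 12, had one, while the chromosome 1 genes H2AC25 and H2BC26 and the chromosome 21 gene H2BC12L had none.

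Many genes without a region were neighbours. The longest stretch ran over 9 genes, H2BC8, H2AC8, H3C6, H1-3, H4C6, H4C7, H3C7, H2BC9 and H3C8, inside a gap of 67.3 kb between neighbouring regions. H4C4, H3C4, H2AC7 and H2BC7 lay in a gap of 20.9 kb, and H2AC16, H1-5, H3C11 and H4C13 in a gap of 49.2 kb. H2AC1 and H2BC1, which encode testis forms, were 235 and 234 kb from the nearest region, while the testis linker gene H1-6 was 2.0 kb from one. The regions are named as peaks in the deposited table, so a gene without one may still carry H3K4me2 below that limit.

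**Figure D1:**
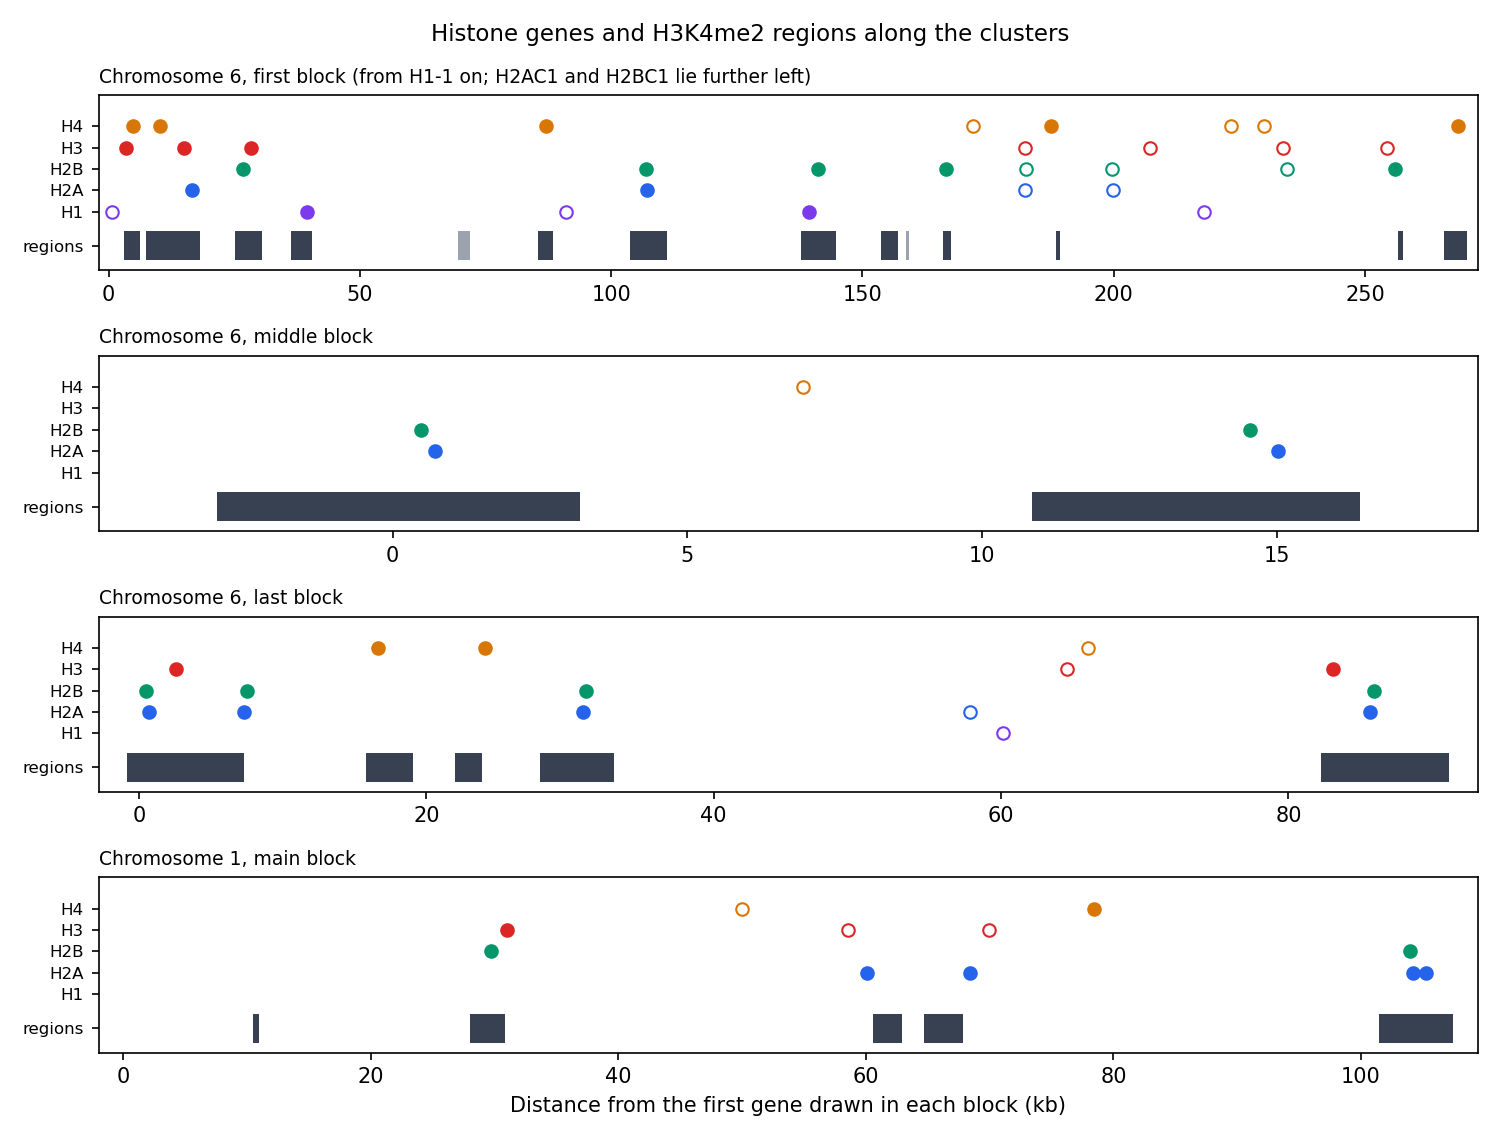
Position of histone genes (circles at their start site, or mid-gene where none was given, by family on the vertical axis) and H3K4me2 regions (bars) along 4 blocks, in kb from the first gene drawn. Filled circles have a region within 1 kb, open circles have none, dark bars are the histone gene regions and grey bars other regions. The open circles form runs, the longest of 9 genes in the first block, and H4C15 is drawn at the far end of its long gene model.

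Where a region was present it usually spanned the start site. Of 64 genes with a start site in the table, 29 had it inside a region, and 9 others had a region within 1 kb of the gene but not over the start. Of 11 couples of an H2A and an H2B gene that face each other, with 194 to 248 bases between their starts, 6 had both starts in 1 region and 4 had no region at either gene. In the couple H2AC14 and H2BC14 the region ended 13 bases short of the H2AC14 start. The start of H4C5 lay 967 bases from its region and that of H2BC10 762 bases, and both regions were narrow, 859 and 937 bases wide.

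Sharing was common: 14 of the 25 regions touched 2 or more members, and 1 touched 5 (H2BC13, H2AC13, H3C10, H2AC14 and H2BC14). Genes that share a region have the same values below and are not separate observations. Region widths ran from 477 to 10632 bases with a median of 3769, beside 1661 for all 51156 tested regions and 3654 for tested regions at an end of a protein-coding gene. Per kb of region the median level was 13.1 normalised CPM (scaled with edgeR's TMM factors), beside 6.66 for all tested regions and 9.13 at gene ends. Of the 25 regions 24 were above the median of all tested regions on this scale, and 14 were in the top decile of tested regions by total level (the highest of 10 equal groups).

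All 25 histone gene regions passed the filter on low counts. With OICR-9429, 19 of them rose, 0 fell and 6 did not pass the test (edgeR's quasi-likelihood test, adjusted p under 0.05 over all tested regions). The share that rose was 76%, beside 17.0% of all tested regions, 48.2% of regions at a protein-coding gene end and 55.2% of the top decile by level. None was lower at an unadjusted p under 0.05 or with DESeq2's Wald test, while 14.0% of all tested regions fell, as did 3.43% at gene ends and 1.25% of the top decile. The 19 regions touched 38 genes, with folds of 1.27 to 1.72. The median log2 fold change of the 25 was 0.45, beside 0.03 for all tested regions, 0.36 at gene ends and 0.37 in the top decile.

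How many regions rose depended on the scaling and on single libraries. Scaled to library totals, which moved the median of all regions from 0.03 to -0.17, 12 of the 25 rose, with a median of 0.25. In that scaling 3301 of all regions rose and 11984 fell, against 8709 and 7179 with TMM. Loess offsets, fitted so that fold change no longer depends on level, left 8 of the 25 (32%) higher with a median of 0.18, beside 5.40% of all tested regions, 6.87% at gene ends and 6.04% of the top decile. With them 2761 of all regions rose and 4445 fell (8.69%), none of them a histone gene region. With TMM, the count was 7 without DMSO replicate 1, 6 without DMSO replicate 2 and 22 without DMSO replicate 3. The shares of all tested regions that rose moved too, to 2.26%, 2.14% and 23.7% in the same order. No histone gene region was called lower under any of the 13 other settings.

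The 25 regions together held 0.121%, 0.112% and 0.129% of the counts of DMSO replicates 1 to 3. They held 0.156%, 0.146% and 0.151% of the counts of OICR-9429 replicates 1 to 3. Every treated library exceeded every control, with means of 0.121% ± 0.00848 (SD, n = 3) and 0.151% ± 0.00482 (SD, n = 3), a ratio of 1.25. The exact 95% interval (Clopper-Pearson) of the smallest library, OICR-9429 replicate 3, ran from 0.149% to 0.153%. As a share of the counts at gene ends only, the means were 0.247% ± 0.00527 and 0.278% ± 0.00671.

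**Figure D2:**
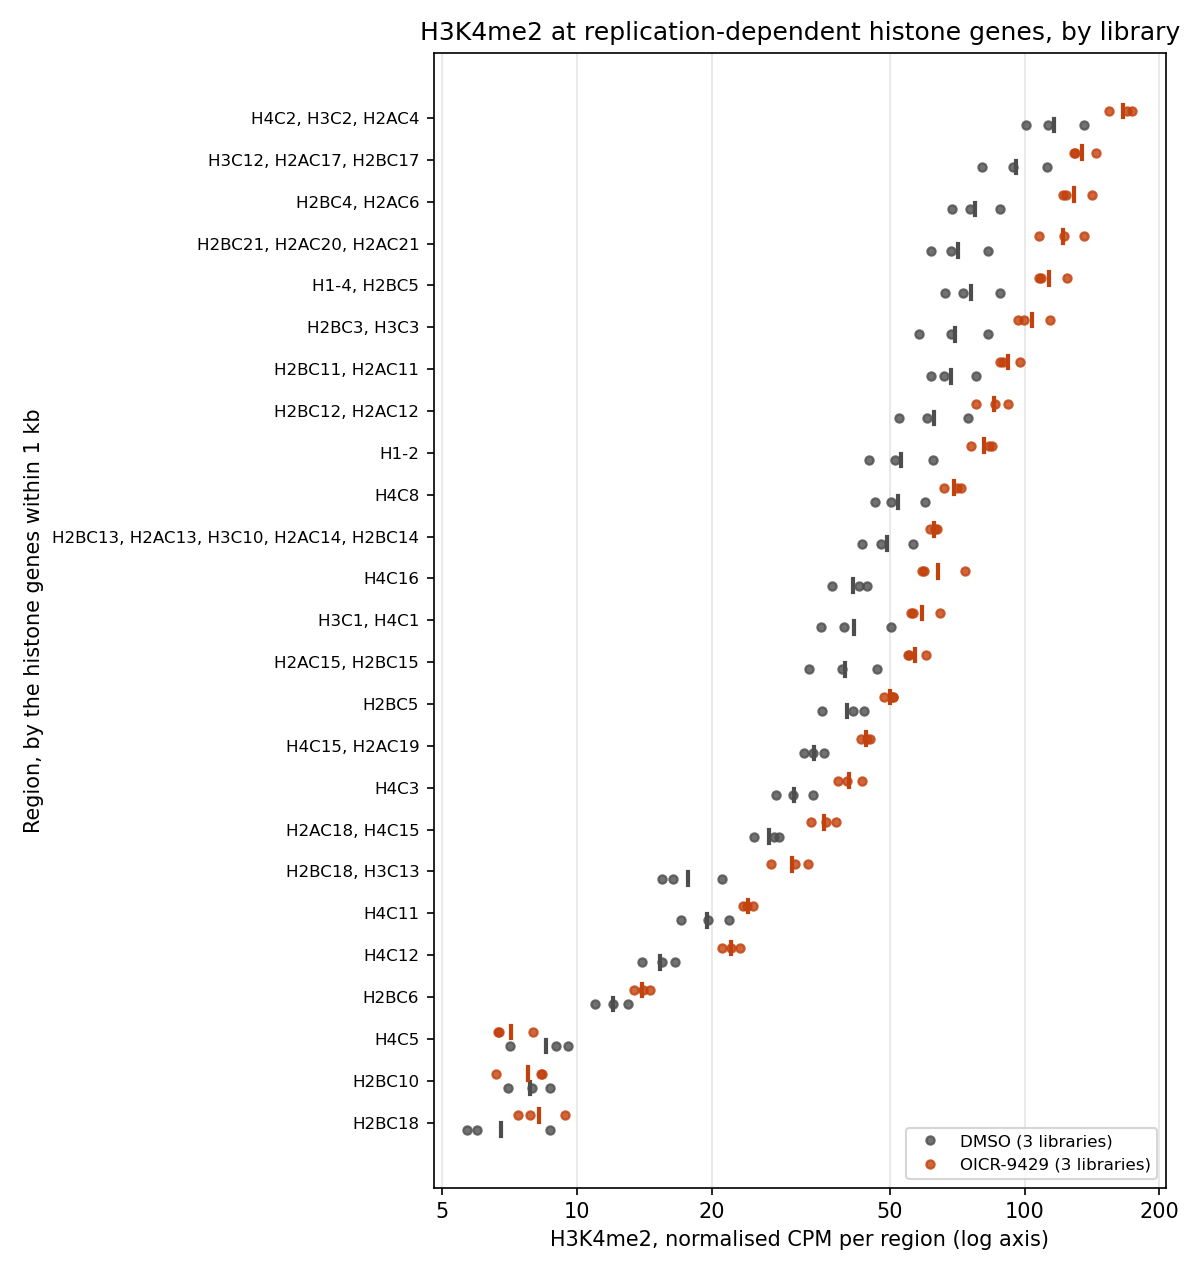
H3K4me2 at the 25 histone gene regions in normalised CPM on a log axis, with 1 point per library and a bar at each group mean (3 DMSO in grey, 3 OICR-9429 in orange). The groups are apart in 22 regions, and the exceptions are the weak regions at H4C5, H2BC10 and inside H2BC18.

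In 22 of the 25 regions the lowest treated library exceeded the highest control, beside 24.8% of all tested regions. The other 3 were the weakest of the set.

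H2A and H2B encode the proteins that pair as dimers on the outside of the nucleosome core, and the regions at their genes include the highest log2 fold change of the set. All 10 regions at H2A genes rose (median log2 fold change 0.47), as did 10 of 14 at H2B genes (0.47), beside 48.2% of regions at gene ends and 55.2% of the top decile, and the lists share regions. With loess offsets 2 of the 10 H2A regions (median 0.15) and 5 of the 14 H2B regions (median 0.21) were called. The shares higher with these offsets were 6.87% at gene ends and 6.04% of the top decile. The region at H2BC21, H2AC20 and H2AC21 (chromosome 1, 149884116 to 149890107) held 68.4, 61.7 and 82.7 normalised CPM in the DMSO libraries and 135, 108 and 123 with OICR-9429. The groups were well apart, and the log2 fold change of 0.78 (SE 0.13, edgeR adjusted p = 0.00174) was the highest of the 25. It was 0.45 with loess offsets (edgeR adjusted p = 0.00345), and 0.63 to 0.91 with 1 library left out.

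H2BC4 and H2AC6 face each other across 246 bases on chromosome 6, and the H2BC4 sequence printed above lies in that space. Their region (26120770 to 26128226) held 75.4, 68.9 and 88.1 normalised CPM with DMSO and 142, 122 and 124 with OICR-9429. All treated libraries were higher, with a log2 fold change of 0.74 (SE 0.12, edgeR adjusted p = 0.00156). The rise passed the test with loess offsets too, at 0.40 (edgeR adjusted p = 0.00288).

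H3C12, H2AC17 and H2BC17, at the end of the last block, shared the region with the second highest level (chromosome 6, 27889773 to 27898643). It held 94.0, 80.3 and 112 normalised CPM with DMSO and 144, 130 and 129 with OICR-9429. The groups did not overlap, and the log2 fold change was 0.49 (SE 0.13, edgeR adjusted p = 0.0138). The call was lost with loess offsets (0.16, adjusted p = 0.135) and without DMSO replicate 1 or 2 (0.42 and 0.32).

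The 4 H2B regions that did not pass the test were the inner region of H2BC18 (log2 fold change 0.28), the downstream region of H2BC5 (0.32), H2BC6 (0.22) and H2BC10 (-0.01). At H2BC6 and the downstream H2BC5 region every treated library still exceeded every control. H2BC10 read 8.69, 7.91 and 6.99 normalised CPM with DMSO and 8.36, 8.32 and 6.59 with OICR-9429, so the groups overlapped. The inner H2BC18 region was also within 1 kb of FCGR1A.

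H3 carries the lysine whose methylation was measured, and all 6 regions at H3 genes rose (median log2 fold change 0.51, beside 0.36 at gene ends, where 48.2% rose). With loess offsets 2 of the 6 were called (median 0.18), beside 6.87% higher at gene ends. The region over H4C2, H3C2 and H2AC4 (chromosome 6, 26024508 to 26035139) was the widest and had the highest level. It held 113, 101 and 135 normalised CPM with DMSO and 174, 154 and 170 with OICR-9429. The log2 fold change was 0.51 (SE 0.12, edgeR adjusted p = 0.00973), with no overlap between groups. The call was lost with loess offsets (0.18, adjusted p = 0.0819) and without DMSO replicate 1 (0.43, adjusted p = 0.0573) or 2 (0.36, adjusted p = 0.058).

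At H2BC18 and H3C13 the region (chromosome 1, 149810727 to 149813492) covered the H2BC18 start and ended 201 bases from that of H3C13. It held 16.4, 15.5 and 21.1 normalised CPM with DMSO and 32.7, 27.2 and 30.6 with OICR-9429. Its log2 fold change was 0.77 (SE 0.14, edgeR adjusted p = 0.00282). With loess offsets it had the highest value of the 25, 0.60 (edgeR adjusted p = 0.00724). The H2BC3 and H3C3 region (chromosome 6, 26042210 to 26047518) held 68.5, 58.2 and 82.9 with DMSO and 114, 96.8 and 99.9 with OICR-9429, a log2 fold change of 0.57 (SE 0.14, edgeR adjusted p = 0.00924). That call was lost without DMSO replicate 2 (0.40, adjusted p = 0.0552).

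H4, the most conserved core histone, had 8 of 10 regions higher (median log2 fold change 0.41), beside 48.2% at gene ends and 55.2% of the top decile. Under loess offsets 2 of 10 were called (median 0.15), beside 6.87% and 6.04%. The regions shared with H2AC18 and with H2AC19 count as H4 only through the long gene model of H4C15. The H4C15 start lay 10600 bases from the nearest region. H4C16 stands apart from the clusters on chromosome 12, and its region (14768732 to 14772500, also within 1 kb of LOC105369669) held 42.6, 37.1 and 44.4 normalised CPM with DMSO and 73.6, 59.6 and 58.9 with OICR-9429. All treated libraries were higher, with a log2 fold change of 0.63 (SE 0.13, edgeR adjusted p = 0.00511), and 0.30 with loess offsets (edgeR adjusted p = 0.0327). The H4C8 region (chromosome 6, 26282775 to 26287427) held 50.3, 46.3 and 59.9 with DMSO and 70.7, 66.2 and 72.0 with OICR-9429. Its log2 fold change of 0.42 (SE 0.13, edgeR adjusted p = 0.0230) did not pass with library totals (0.22, adjusted p = 0.0621), with loess offsets (0.09), without DMSO replicate 1 (0.33) or 2 (0.28), or without OICR-9429 replicate 2 (0.45) or 3 (0.39).

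The lowest value of the set was at H4C5 (chromosome 6, 26205577 to 26206435), with 7.08, 8.97 and 9.54 normalised CPM with DMSO and 6.67, 7.98 and 6.66 with OICR-9429. The groups overlapped, and the log2 fold change of -0.26 (SE 0.16) did not pass (edgeR adjusted p = 0.218). H4C11 and H4C12, neighbours in the last block, have promoters identical at 295 of 300 positions (98.3%). H4C12 rose by 0.52 (edgeR adjusted p = 0.00986), a call lost with library totals (0.33, adjusted p = 0.0547) and without DMSO replicate 1 or 2 (0.47 and 0.40), while H4C11 stood at 0.31 (edgeR adjusted p = 0.0825), and the difference between them was not tested. The promoters of H4C14 and H4C15 are identical at 300 of 300 positions. How the authors treated reads that match several copies is not given in the sources used here, so values at such copies are uncertain, including the regions near H4C15, H2AC18 and H2AC19.

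H1 genes had 2 regions, and both rose (median log2 fold change 0.60, beside 0.36 at gene ends, where 48.2% rose). At H1-2 (chromosome 6, 26053403 to 26057476) the DMSO libraries held 51.3, 45.0 and 62.6 normalised CPM and the OICR-9429 libraries 83.2, 76.1 and 84.7. The groups were apart, with a log2 fold change of 0.62 (SE 0.13, edgeR adjusted p = 0.00595). The region of H1-4, shared with H2BC5 (chromosome 6, 26154809 to 26161742), held 72.9, 66.4 and 88.3 with DMSO and 124, 107 and 109 with OICR-9429. It rose by 0.58 (SE 0.13, edgeR adjusted p = 0.00657), and with loess offsets H1-2 and H1-4 stood at 0.29 and 0.25 (edgeR adjusted p = 0.0263 and 0.0294). H1-1, H1-3, H1-5 and H1-6 had no region.

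**Figure D3:**
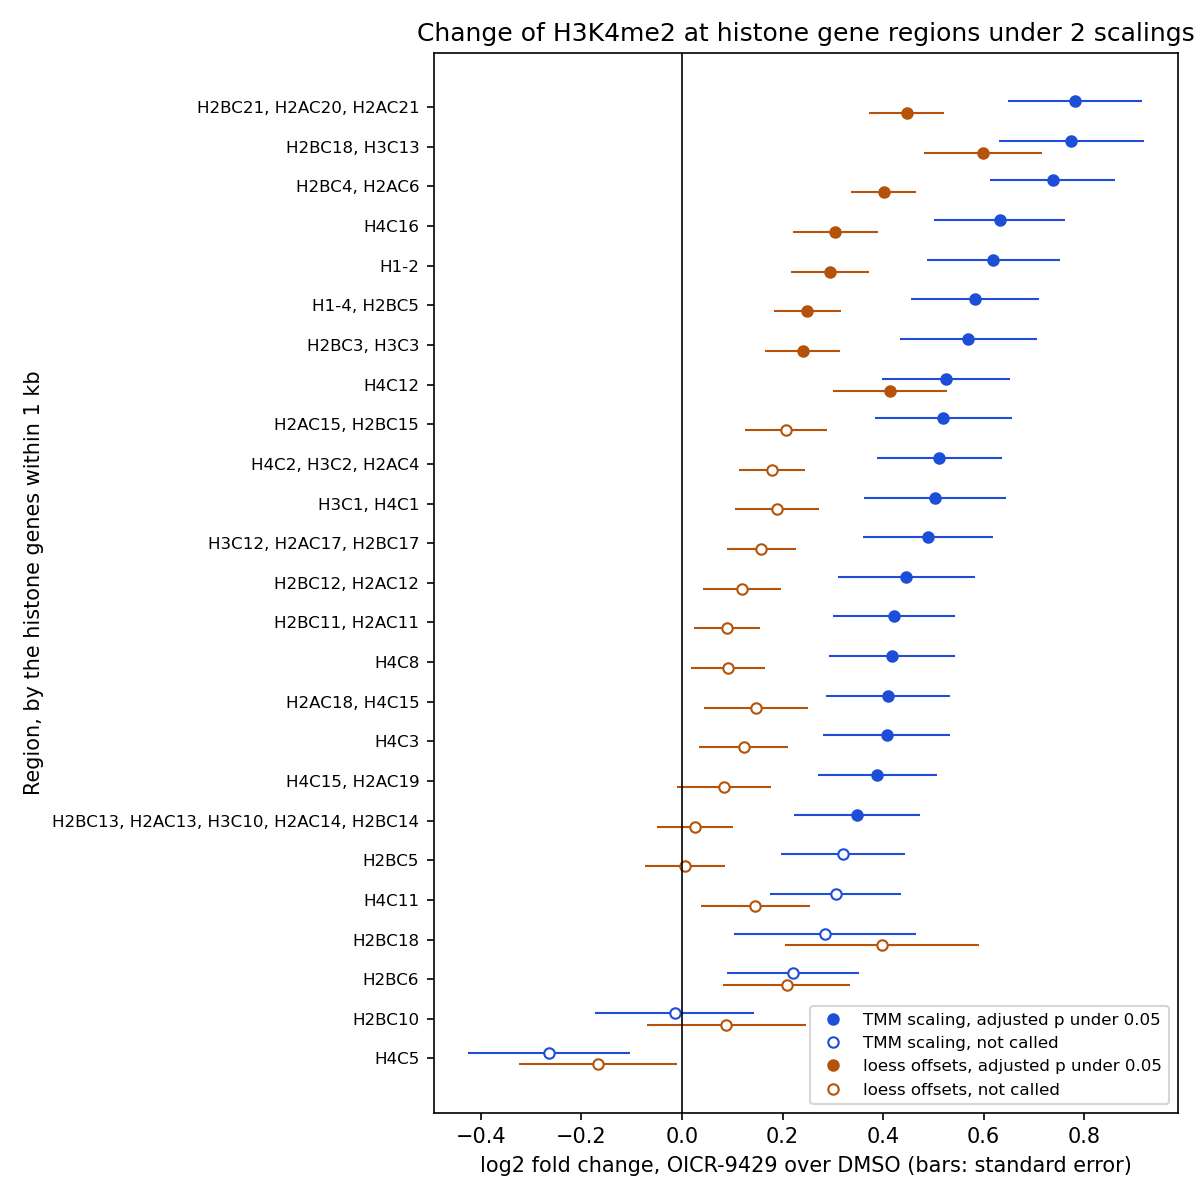
log2 fold change of the 25 histone gene regions, OICR-9429 over DMSO, with TMM scaling (blue) and with loess offsets (orange). Bars are standard errors and filled points have an adjusted p under 0.05, which 19 regions reach with TMM and 8 with loess offsets.

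Of the 25, 6 regions were called higher under each of the 13 other settings run (3 scalings, 2 count filters, the DESeq2 Wald test, a replicate block, and 6 with 1 library left out). They were the regions at H2BC18 and H3C13, at H2BC21, H2AC20 and H2AC21, at H4C16, at H1-2, at H2BC4 and H2AC6, and at H1-4 and H2BC5. The region shared by H2BC13, H2AC13, H3C10, H2AC14 and H2BC14 was called in 1 of the 13 and had a log2 fold change of 0.35 (edgeR adjusted p = 0.0449). The regions that rose and have values given in earlier paragraphs, but are not among the 6, were called in 7 to 12 of the 13. The remaining 7 that rose had no values given earlier and were called in 6 to 10 of the 13. They were at H2AC15 and H2BC15 (0.52), H3C1 and H4C1 (0.50), H2BC12 and H2AC12 (0.45), and H2BC11 and H2AC11 (0.42). Also among them were H2AC18 and H4C15 (0.41), H4C3 (0.41), and H4C15 and H2AC19 (0.39).

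Level and change moved together across the set. The 14 regions in the top decile by level all rose, with a median of 0.52, beside 55.2% of all tested regions in that decile. The 4 in deciles 1 to 6 had a median of 0.10 and none rose. Over all deciles together 17.0% of tested regions rose, and the share within deciles 1 to 6 is not given here. Over all tested regions the median log2 fold change was -0.08 in the fifth decile and 0.37 in the top decile. The 14 regions that touched several members all rose, against 5 of 11 that touched 1, beside 48.2% at gene ends. Their median levels were 77.0 and 21.8 normalised CPM. With loess offsets these contrasts were smaller: 6 of the 14 in the top decile were called, 5 of the 14 that touched several members and 3 of the 11 that touched 1. The shares of all tested regions higher with these offsets were 6.04% in the top decile and 6.87% at gene ends.

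**Figure D4:**
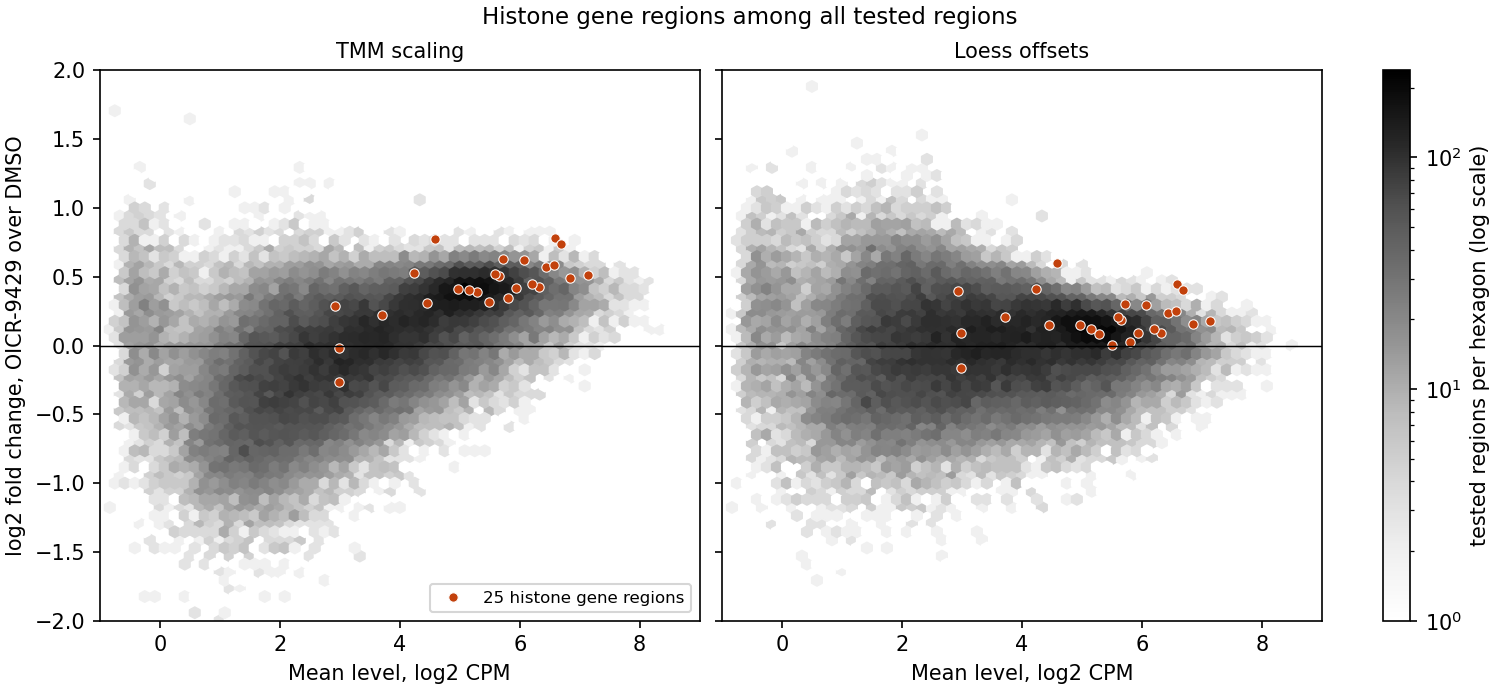
log2 fold change, OICR-9429 over DMSO, against mean level (log2 CPM) for all tested regions (grey hexagons, darker where more regions fall) and the 25 histone gene regions (orange). With TMM (left) most histone regions lie in the upper right, and with loess offsets (right) 24 of 25 lie above 0 and 8 are called.

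By position, the blocks overlapped in their values. Of 12 regions in the first block of chromosome 6, 8 rose (median 0.46), of 2 in the middle block 2 rose (0.43), and of 5 in the last block 4 rose (0.49). On chromosome 1, 4 of 5 rose (0.41). The shares higher were 48.2% of regions at a protein-coding gene end and 55.2% of the top decile by level. With loess offsets the calls were 4 of 12, 0 of 2, 1 of 5 and 2 of 5 in the same order, none of them lower. At gene ends 6.87% were higher with these offsets. Other protein-coding genes between the first and the last histone gene of chromosome 6 had 14 tested regions, of which 9 rose and 0 fell. Their log2 fold changes were -0.01 to 0.51 with a median of 0.36, beside 0.36 at gene ends, where 48.2% rose. With loess offsets 0 of these 14 were called in either direction (median 0.07). Butyrophilin genes lie among them, with BTN3A1 at -0.01 and BTN2A2 at 0.38 (edgeR adjusted p = 0.0401).

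Histone genes outside the rule, most of which encode variants made throughout the cell cycle, had 5 higher and 0 lower among 10 regions, with a median of 0.36, close to the 48.2% higher and the median of 0.36 at all gene ends. H2AZ1, which encodes the promoter variant H2A.Z, went from 70.6 ± 8.77 to 102 ± 5.18 normalised CPM (SD, n = 3), a log2 fold change of 0.53 (edgeR adjusted p = 0.00822). Its region was shared with DNAJB14. H2AX, whose product is phosphorylated at DNA breaks, rose by 0.41 (edgeR adjusted p = 0.0286), in a region shared with other genes. H3-3A and H3-3B, which encode H3.3, stood at 0.29 and 0.31 and did not pass (edgeR adjusted p = 0.0744 and 0.0563). The H3-3B region was shared with UNK. With loess offsets the H2AZ1 call was lost (0.19, adjusted p = 0.0812), and H2AX, H3-3A and H3-3B stood at 0.08, -0.03 and -0.03. Under them H1-10 was called higher (0.33) and MACROH2A1 lower (-0.29), and the median of the list was 0.03. MACROH2A2 and H3-5 had no region.

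Among genes of the histone locus body and histone mRNA processing, 12 of 17 regions rose and 0 fell (median 0.38), beside 48.2% and 0.36 at gene ends, and with loess offsets 0 were called in either direction. NPAT, the target of cyclin E and CDK2 in the histone locus body, did not pass at 0.25 (edgeR adjusted p = 0.148), in a region shared with ATM. CASP8AP2, which encodes FLASH, rose from 22.7 ± 1.59 to 29.8 ± 1.06 normalised CPM (SD, n = 3; log2 fold change 0.39, edgeR adjusted p = 0.0264). HINFP rose by 0.38 (edgeR adjusted p = 0.0409). SLBP, the stem-loop binding protein gene, rose by 0.34 (edgeR adjusted p = 0.0471) in a region shared with TACC3 and TMEM129. With loess offsets NPAT, CASP8AP2, HINFP and SLBP stood at -0.08, 0.18, 0.07 and 0.00.

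Histone chaperone and assembly genes had 11 of 21 tested regions higher and 0 lower (median 0.33), near the 48.2% and 0.36 of all gene ends. Under loess offsets 1 was higher, the region that IPO4 shares with REC8 and TM9SF1 (0.29). CHAF1A, the large subunit of the replication-coupled assembly factor CAF-1, rose by 0.34 (edgeR adjusted p = 0.0411) and stood at 0.00 with loess offsets. Its region was shared with SH3GL1. Genes with an RPL or RPS number symbol, nearly all of which encode cytosolic ribosomal proteins, had 51 of 82 regions higher and 0 lower. Their median was 0.39, beside 48.2% higher and a median of 0.36 at gene ends. The symbol rule also took in RPS19BP1, which is no ribosomal protein gene, and readthrough genes such as RPS10-NUDT3 and RPL36A-HNRNPH2. With loess offsets 6 of those 82 were higher and 4 lower (median 0.07), beside 8 higher and 0 lower of the 25 histone gene regions (median 0.18). These lists are set side by side as counts, and the difference between them was not tested. Each scaling is relative and took no Drosophila reads into account, so a change shared by all regions cannot be seen.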

How the data were processed

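The authors deposited raw read counts for 6 H3K4me2 ChIP libraries over 1 common set of regions, with featureCounts columns per the file headers. The submitters' processing notes name the builds hg38 and dm6 and the tools featureCounts, Bowtie, DESeq2, deepTools and MACS2. Their versions, settings and handling of duplicate or multiply matching reads were not given in the sources used here. The 7 input libraries and 1 untreated ChIP library were not analysed here. Libraries were matched to columns by the column names in the labels.

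The comparison of 3 DMSO with 3 OICR-9429 libraries had no covariates. It used the quasi-likelihood test of edgeR 4.0.16 (R 4.3.3) after filterByExpr and TMM scaling, with Benjamini-Hochberg adjustment over 51156 regions and a threshold of 0.05, and the script was tested on simulated data. Library totals were 16483098 to 23509413 counts. P-values rest on the spread between these libraries. Standard errors (SE) were derived from the fold change and its F statistic. Normalised CPM use the TMM-scaled library size. Region width in bases was deposited by the authors. Exact binomial intervals (Clopper-Pearson) cover counting error only, as these reads carry no stated molecular identifiers.

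Genes and promoters came from RefSeq (GRCh38.p14), and 64 of 70 members matched a promoter. A gene of the other lists was represented by its region within 1 kb with the highest mean count. In each family the text names the 2 regions of highest level and the 2 smallest p among those higher, then members off chromosomes 6 and 1, the extremes, and NPAT, CASP8AP2, HINFP, SLBP, H2AX, H2AZ1, H3-3A, H3-3B and CHAF1A. H4C11, H4C12, H2BC10, the regions given as remaining or called once, the other H2B regions not called, the butyrophilin genes, H1-10, MACROH2A1, IPO4, RPS19BP1 and the readthrough genes were named after their values were seen. Members and lists were chosen with earlier results of these data known. Alternatives were library totals, DESeq2 1.42.0 size factors, loess offsets (span 0.3), the table without a filter, a minimum mean count of 50, the DESeq2 Wald test, a replicate block, each library left out, a threshold of 0.01, windows of 0 and 5 kb, and members without H1 genes. The result of a further list of cell type markers is not reported here.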

Additional observations from a re-analysis of the deposited data

How the results depend on the processing

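The main values were 19 histone gene regions higher and 0 lower, a median log2 fold change of 0.45, and 8709 regions higher and 7179 lower over the whole table. Library totals gave 12 histone gene regions higher, a median of 0.25, and 3301 higher and 11984 lower regions in all. Loess offsets gave 8, 0.18, 2761 and 4445. A threshold of 0.01 gave 9 histone gene regions higher, and 1472 higher and 2638 lower in all, and a mean count of at least 50 gave 5073 higher in all. With 1 library left out the histone gene regions called higher ranged from 6 to 22, their median from 0.30 to 0.58, all regions higher from 1104 to 12192 and all lower from 4096 to 8234. The lowest of these came without DMSO replicate 2 and the most calls higher without DMSO replicate 3. The cause was not tested. The count of histone gene regions called lower was 0 under every setting run, and among the 25 only H2BC10, at -0.01, changed sign under the 13 other fits (0.09 with loess offsets, 0.08 without OICR-9429 replicate 3, neither called). Windows of 0 and 5 kb, leaving out H1 genes and the other settings stayed within 1.5 times the main count.

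The replicate number as a block gave 18 histone gene regions higher, 6333 higher and 5826 lower in all. Deviations of same-numbered libraries from their group means had correlations of -0.157, 0.182 and -0.194. With 3 libraries per arm these values cannot decide whether the numbers pair the samples. Regions of a few normalised CPM, such as H4C5 and H2BC10, have standard errors of 0.16 and limit what can be seen there.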

Other observations

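Within the DMSO group, replicate 3 had the highest normalised CPM in 22 of the 25 histone gene regions and replicate 2 the lowest in 23. Within the OICR-9429 group, replicate 1 was highest in 15 and replicate 2 lowest in 16.

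The octamer of H2B promoters lay at either of 2 distances from the start. In 8 H2B promoters it began 49 to 45 bases upstream on the sense strand and in 5 it began 123 to 104 bases upstream, as printed for H2BC4. In H3 promoters 9 of 11 had a CCAAT beginning 54 to 50 bases upstream and 9 had one 96 to 91 bases upstream. The H3C4 window, which is that of H2AC7, is among the 11 but in neither group of 9.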
